A study of Homo sapiens with 20 samples.

Results

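The 10 enzymes described here make serine and carry its one-carbon unit through folate: PHGDH, PSAT1, PSPH, SHMT1, SHMT2, MTHFD1, MTHFD1L, MTHFD2, MTHFD2L and ALDH1L2. They were taken by symbol from the 45372 genes of the deposited tables, and 10 of 10 were found and passed the filter on low values in each table. They form a list chosen by name with measured values in view, the TPM fold changes of HUWE1 siRNA against non-targeting siRNA in sets 1, 2 and 3, so their levels against non-targeting siRNA are given as a description, with fold changes, standard errors and counts but no p. All libraries came from HEK293T, a human line of embryonic kidney origin that expresses SV40 large T antigen, transfected with small interfering RNA (siRNA) and sequenced after poly(A) selection. HUWE1 is a very large ubiquitin ligase of the HECT family. There were 5 groups of 4 biological replicates: non-targeting siRNA and HUWE1 siRNA with no set number in the labels, called set 1 here, HUWE1 siRNA of set 2, HUWE1 siRNA of set 3, and non-targeting siRNA shared by sets 2 and 3. The labels do not say how the sets differ, and siRNA sequences and the time after transfection were not used here. Set 1 is in a first table and sets 2 and 3 in a second, and the tables were normalized separately, so levels across them are given side by side without a test.

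Cells make serine from the glycolytic intermediate 3-phosphoglycerate. PHGDH oxidises it, PSAT1 transaminates the product and PSPH removes the phosphate. Serine hydroxymethyltransferase then moves a carbon from serine to tetrahydrofolate, by SHMT1 in the cytosol and by SHMT2 in mitochondria. In mitochondria MTHFD2, or its isozyme MTHFD2L, oxidises that carbon, MTHFD1L releases it as formate, and ALDH1L2 instead oxidises it to carbon dioxide with formation of NADPH. In the cytosol the trifunctional enzyme MTHFD1 takes up formate for the synthesis of purines, thymidylate and methionine. Proliferating cell lines commonly run this cycle from mitochondria to cytosol. Several of these genes are known targets of the amino acid stress factor ATF4, and MYC is also known to act on the pathway.

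The values are TPM, a transcript abundance that sums to the same total in each library. Mitochondrially encoded transcripts held a mean of 25.2% of that total in the controls of set 1 and 25.6% in HUWE1 set 1. In the second table they held 17.7% in the shared controls, 16.9% in set 2 and 15.9% in set 3. A smaller share leaves more of the total to other genes, and fits with these transcripts removed are among the alternatives below. TPM values are scaled for transcript length and can be compared between genes of a library. In the controls of set 1 the order of mean TPM was PSAT1 (279.7), SHMT2 (249.99), MTHFD2 (179), PHGDH (129), MTHFD1L (104), MTHFD1 (73.1), SHMT1 (45.9), PSPH (19.3), MTHFD2L (7.91) and ALDH1L2, the lowest at 3.99 to 4.82 TPM in the 4 libraries. No neighbours in this order overlapped between libraries. PSAT1 lay at percentile 97.9 of the 16057 genes tested in that table, and MTHFD2L at percentile 33.3. The controls of sets 2 and 3 had nearly the same order, with PSAT1 at 336 TPM, SHMT2 at 246, MTHFD2 at 216, PHGDH at 143, MTHFD1 at 92.9, MTHFD1L at 84.4, SHMT1 at 48.5, PSPH at 32.8, ALDH1L2 at 8.33 and MTHFD2L at 7.79. In those controls SHMT2 overlapped with MTHFD2, MTHFD1 with MTHFD1L, and ALDH1L2 with MTHFD2L, so the order within each of these pairs is not beyond the spread of the libraries. In both control groups the mitochondrial SHMT2 stood well above its cytosolic counterpart SHMT1, and MTHFD2 stood far above its isozyme MTHFD2L. Summed over the 5 mitochondrial folate enzymes, the controls held 545 ± 9.59 TPM in set 1 and 563 ± 42.4 TPM in sets 2 and 3, against 119 ± 2.89 and 141 ± 15.7 TPM for the 2 cytosolic ones and 428 ± 4.03 and 512 ± 30.4 TPM for the 3 serine synthesis enzymes (SD, n = 4).

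The targeted transcript was lower in each HUWE1 siRNA library than in each control of its table, at 54.1% of the control mean in set 1, 57.9% in set 2 and 51.9% in set 3 (exact two-sided permutation p = 0.0286 in each, the smallest p that 4 against 4 libraries allow). Of 9 embryonic kidney and neural-lineage genes of HEK293 cells, PAX2 and NEFM among them, 9 had a mean TPM of 1 or more in each group. In set 1 they summed to 349 to 363 TPM in controls and 269.8 to 278 TPM after HUWE1 siRNA, and in set 3 to 336 to 342 TPM against 356 to 460.4 TPM. In set 1, 4 of the 9 fell and 1 rose at a limma adjusted p under 0.05, where 17.9% of all tested genes fell and 12.3% rose. In set 3, 2 of the 9 fell and 1 rose, where 4.15% of all tested genes fell and 7.45% rose. The part of these differences in the results below was not tested. The hemoglobin gene HBB was at 0 in all 20 libraries. Fibroblast markers summed to at most 20.9 TPM and blood markers to at most 8.30 TPM in a library. In set 1 the fibroblast sum was 16.8 to 18.4 TPM in controls and 19.3 to 20.9 TPM after HUWE1 siRNA, and its part was not tested either. In bulk RNA, fewer cells of a kind and less RNA per cell cannot be told apart. In the second table non-targeting replicates 1 and 4 stood apart from the other libraries. On the leading principal component of library deviations within groups, which held 39.6% of the variance, they scored -24.7 and 25.0, against -11.5 to 10.9 in the other 10 libraries.

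**Figure D1:**
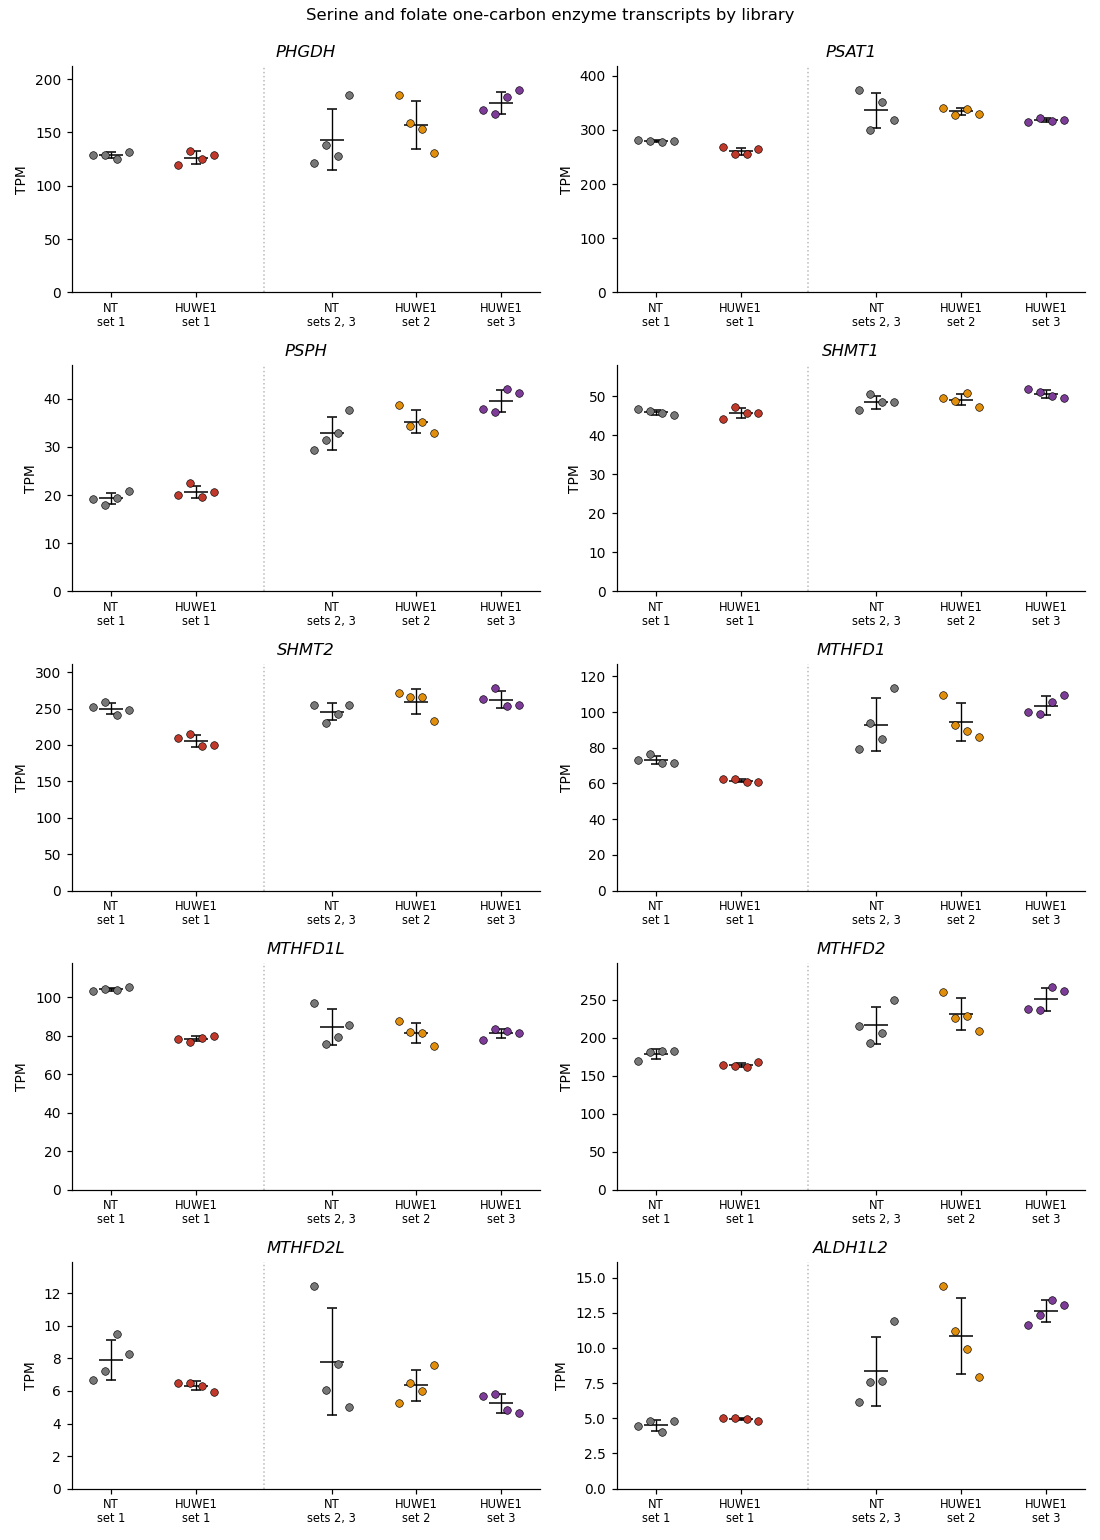
TPM of each enzyme transcript in each of the 20 libraries (points, in the order of the replicate number), with the group mean and SD (bars). The dotted line parts the 2 tables, which were normalized separately. MTHFD1L, SHMT2 and MTHFD1 lie below their controls in set 1 without overlap, and the shared controls of sets 2 and 3 are widely spread for PHGDH, MTHFD1, MTHFD2L and ALDH1L2.

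In set 1 the folate enzymes MTHFD1L, SHMT2, MTHFD1, MTHFD2 and MTHFD2L and the serine synthesis enzyme PSAT1 were lower after HUWE1 siRNA, while the folate enzymes SHMT1 and ALDH1L2 and the serine synthesis enzymes PHGDH and PSPH were not. The clearest difference was in MTHFD1L, the mitochondrial formyltetrahydrofolate synthetase that releases formate (GRCh38, chromosome 6, 150865549 to 151101887, plus strand). It measured 103, 104, 104 and 105 TPM in the 4 controls and 78.1, 76.7, 78.9 and 79.7 TPM in the 4 HUWE1 libraries. All HUWE1 libraries were thus below all controls, by far more than the spread within either group, and the mean was 75.3% of control (log2 fold change -0.40 ± 0.022, SE). SHMT2, the mitochondrial serine hydroxymethyltransferase (chromosome 12, 57229327 to 57234935, plus strand), measured 251, 259.6, 241 and 248 TPM in controls and 209, 215, 198 and 199.8 TPM after HUWE1 siRNA. Again the groups did not overlap, and the mean was 82.2% of control (-0.28 ± 0.033, SE). MTHFD1, the cytosolic trifunctional enzyme (chromosome 14, 64388031 to 64463457, plus strand), measured 73.3, 76.5, 71.3 and 71.3 TPM in controls and 62.4, 62.2, 60.7 and 60.9 TPM in HUWE1 libraries. This put it at 84.2% of control with no overlap (-0.24 ± 0.029, SE).

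The other called members, MTHFD2, MTHFD2L and PSAT1, were lower in set 1 by less or with more scatter. MTHFD2, the mitochondrial dehydrogenase (chromosome 2, 74198562 to 74217565, plus strand), went from 169, 181, 183 and 183 TPM to 164, 162, 162 and 168 TPM. The highest HUWE1 library lay just under the lowest control, replicate 1 (log2 fold change -0.12 ± 0.030, SE). Its isozyme MTHFD2L (chromosome 4, 74114174 to 74303099, plus strand) went from 6.64, 7.24, 9.48 and 8.26 TPM to 6.52, 6.52, 6.29 and 5.92 TPM, so that the gap between the groups was small beside the spread of the controls (-0.27 ± 0.089, SE). PSAT1, the aminotransferase of serine synthesis (chromosome 9, 78297143 to 78330093, plus strand), went from 282, 279, 278 and 279 TPM to 268, 256, 255 and 265 TPM, which put it at 93.3% of control (-0.10 ± 0.023, SE).

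The remaining 4 members overlapped between the groups of set 1. PHGDH, which catalyses the first step of serine synthesis (chromosome 1, 119648411 to 119744226, plus strand), held 125 to 132 TPM in controls and 119 to 133 TPM after HUWE1 siRNA (log2 fold change -0.024 ± 0.034, SE). SHMT1 (chromosome 17, 18327860 to 18363563, minus strand) held 45.2 to 46.7 TPM and 44.3 to 47.4 TPM (-0.0054 ± 0.028, SE). The signs of PHGDH and SHMT1 turn under some scalings. PSPH, the phosphatase (chromosome 7, 56011051 to 56051604, minus strand), held 18.0 to 20.8 TPM and 19.5 to 22.4 TPM (0.091 ± 0.052, SE). ALDH1L2 (chromosome 12, 105019784 to 105084577, minus strand) held 3.99 to 4.82 TPM and 4.81 to 5.02 TPM (0.11 ± 0.060, SE). PHGDH and SHMT1 therefore differed by less than the spread of their replicates, and PSPH and ALDH1L2 had slightly higher means.

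In the fit over all genes of set 1, 6 of the 10 members were called lower and 0 higher at a limma adjusted p under 0.05, where 30.3% of all tested genes were called, 17.9% lower and 12.3% higher. Groups did not overlap for the same 6 members, all lower, against 31.7% of tested genes without overlap, 18.4% lower and 13.3% higher. The median log2 fold change of the 10 members was -0.11, against -0.012 over all genes. The members were chosen with this contrast known, so these counts describe them and support nothing. MTHFD2L lost its call under 10 of 17 alternatives, among them those that left out any HUWE1 library or non-targeting replicate 3 or 4, which left 5 members called. By compartment, the 5 mitochondrial folate enzymes summed to 459 ± 7.09 TPM after HUWE1 siRNA (545 ± 9.59 in controls), the cytosolic pair to 107 ± 1.56 (119 ± 2.89) and the 3 serine synthesis enzymes to 408 ± 6.30 (428 ± 4.03; SD, n = 4 each).

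**Figure D2:**
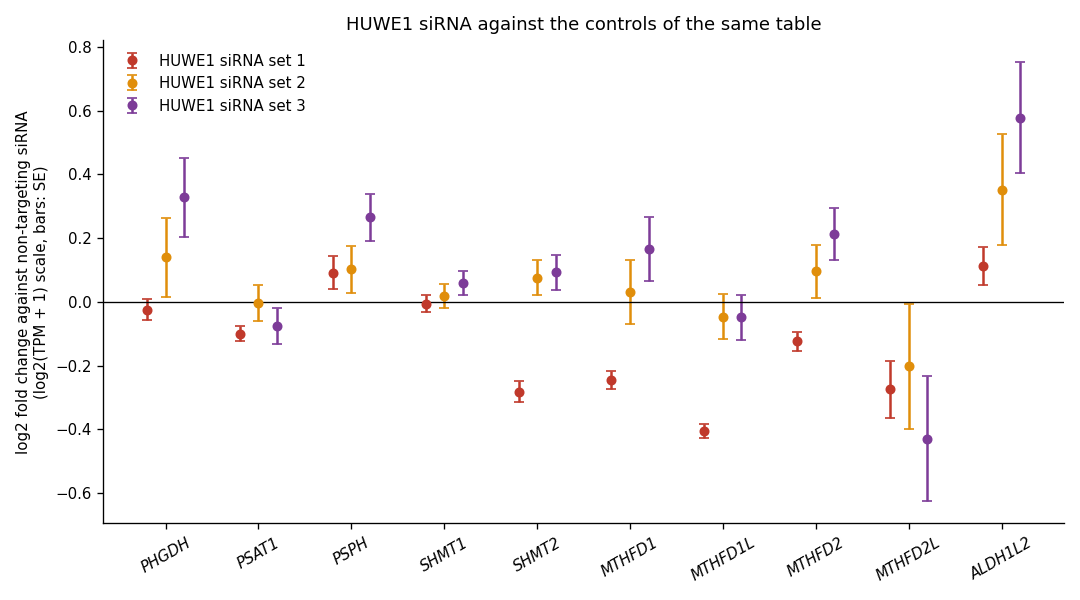
Log2 fold change of each enzyme transcript, HUWE1 siRNA against the non-targeting siRNA of the same table, in sets 1, 2 and 3 (points; bars are the SE of the fit). MTHFD1L, SHMT2 and MTHFD1 lie between -0.40 and -0.24 in set 1 and between -0.05 and 0.17 in sets 2 and 3. Sets 2 and 3 share their controls.

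Promoter windows from RefSeq (GRCh38.p14, 250 bases before to 50 after each annotated start, 11 windows) were matched for 7 of the 10 members. PSPH, SHMT2 and ALDH1L2 had none. Both strands were searched for 2 motifs that do not overlap each other: TGATGNAA, the core of the composite element that ATF4 binds with C/EBP proteins, and CACGTG, the E-box that MYC and MAX bind. MTHFD1L was the only one of the 7 with a TGATGNAA match, which 4.46% of 27305 genes with a window hold, and MTHFD1L and MTHFD1 held CACGTG, which 8.77% hold. The matches are shown to give the letters found, and PSAT1, MTHFD2 and MTHFD2L, which were also lower in set 1, had windows with neither motif. Each is 30 bases on the plus strand, 5′ to 3′, with the match in capitals.
MTHFD1L chr6:150866346-150866375: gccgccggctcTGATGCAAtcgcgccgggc
MTHFD1L chr6:150866320-150866349: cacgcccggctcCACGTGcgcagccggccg
MTHFD1 chr14:64388326-64388355: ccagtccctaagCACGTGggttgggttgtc
In GENCODE 29 on the same build, the TGATGCAA match (150866357 to 150866364) spans the end of the 5′ UTR and the start of the coding sequence of 1 MTHFD1L transcript. The other 4 transcripts that contain it have no UTR or coding sequence annotated there. The CACGTG match of MTHFD1 lies in annotated coding sequence of the transcripts MTHFD1-202 and MTHFD1-211 and in the UTR of MTHFD1-208 and MTHFD1-209. MTHFD1-210 contains it with neither annotated there. Exons without a UTR or coding sequence were not read, so intron and exon cannot be told apart for such transcripts. A match is a description of the letters and does not show that a factor binds there.

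In sets 2 and 3 the lower values of MTHFD1L, SHMT2, MTHFD1 and MTHFD2 seen in set 1 were not repeated. The fold changes of MTHFD2L and PSAT1 were negative there too, but with overlapping groups. Standard errors were larger in the second table, at 0.070 for MTHFD1L against 0.022 in set 1. MTHFD1L measured 97.1, 75.9, 79.1 and 85.4 TPM in the shared controls, 87.8, 81.9, 81.3 and 74.7 TPM in HUWE1 set 2, and 77.8, 83.2, 82.3 and 81.5 TPM in set 3. The groups overlapped, and the log2 fold changes were -0.047 ± 0.070 in set 2 and -0.048 ± 0.070 in set 3 (SE), turning to 0.069 and 0.067 without non-targeting replicates 1 and 4. SHMT2 measured 255, 230.3, 243 and 256 TPM in controls, 271, 266, 266 and 234 TPM in set 2, and 263, 278, 253 and 255 TPM in set 3. These groups overlapped too (0.075 ± 0.055 and 0.093 ± 0.055, SE). SHMT1 again hardly moved, at 46.4 to 50.5 TPM in controls, 47.4 to 50.9 TPM in set 2 and 49.5 to 51.9 TPM in set 3.

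ALDH1L2, PHGDH, MTHFD2, PSPH and MTHFD1 stood above the mean of the shared controls in set 3, within a wide spread of those controls. ALDH1L2, which oxidises 10-formyltetrahydrofolate in mitochondria, measured 6.17, 7.58, 7.67 and 11.9 TPM in controls, 14.4, 11.2, 9.92 and 7.94 TPM in set 2, and 11.6, 12.4, 13.4 and 13.1 TPM in set 3. Non-targeting replicate 4 alone reached the range of set 3, whose mean was 151% of control (log2 fold change 0.58 ± 0.17, SE), while set 2 spread over both other groups (0.35 ± 0.17, SE). PHGDH measured 122, 138, 128 and 185 TPM in controls, 185, 159, 153 and 131 TPM in set 2, and 171, 167, 183 and 189.6 TPM in set 3. Here too replicate 4 was the one control inside the range of set 3 (0.33 ± 0.12, SE, in set 3 and 0.14 ± 0.12 in set 2). MTHFD2 measured 215, 194, 207 and 250.2 TPM in controls and 238, 237, 266 and 261 TPM in set 3 (0.21 ± 0.082, SE), with 261, 226, 228 and 209 TPM in set 2 (0.096 ± 0.082). PSPH measured 29.5, 31.4, 32.9 and 37.6 TPM in controls and 37.8, 37.3, 42.0 and 41.1 TPM in set 3 (0.27 ± 0.074, SE), with 32.9 to 38.6 TPM in set 2 (0.10 ± 0.074). For PSPH too, replicate 4 was the only control to reach into set 3. MTHFD1 measured 79.4, 93.8, 85.0 and 113 TPM in controls, 86.0 to 109.7 TPM in set 2 and 99.0 to 109.8 TPM in set 3, so replicate 4 lay above each library of both sets (0.032 ± 0.10 and 0.17 ± 0.10, SE).

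MTHFD2L and PSAT1 stood the other way, with negative fold changes as in set 1 but with groups that overlapped. MTHFD2L measured 12.4, 6.04, 7.67 and 5.04 TPM in controls and 5.69, 5.80, 4.86 and 4.64 TPM in set 3 (log2 fold change -0.43 ± 0.20, SE), and 5.27 to 7.60 TPM in set 2 (-0.20 ± 0.20). Its control mean of 7.79 TPM was carried by replicate 1, and without that library the change was 0.024 in set 2 and -0.20 in set 3. PSAT1 measured 301 to 374 TPM in controls, 328 to 341 TPM in set 2 and 314 to 322 TPM in set 3, inside the range of the controls in both (-0.0036 ± 0.057 and -0.076 ± 0.057, SE).

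At a limma adjusted p under 0.05, 0 of the 10 members were called in set 2, where 0.0126% of all tested genes were called. None had an unadjusted limma p under 0.05 either, where 1401 of 15860 tested genes did. In set 3, 1 of 10 was called, PSPH, and it was higher, where 11.6% of all tested genes were called, 7.45% higher and 4.15% lower. An unadjusted limma p under 0.05 was found for 5 of the 10 in set 3, and for 5470 of 15860 tested genes. No member's libraries stood clear of all controls in set 2 or set 3, against 3.69% of tested genes in set 2 (1.99% higher, 1.71% lower) and 17.2% in set 3 (11.2% higher, 6.03% lower). These counts too are descriptions, since the rule names both contrasts. The count of calls in set 3 rested on the shared controls. It was 6 without non-targeting replicate 4 (PHGDH, PSPH, MTHFD1, MTHFD2 and ALDH1L2 higher, MTHFD2L lower). It was 0 without replicate 1, 2 or 3, and 4 without replicates 1 and 4 together. With set 3 replicate 1, 3 or 4 left out, or only the 2 groups compared, it was also 0. Calls over all tested genes moved as well, from 1839 to 5878 without non-targeting replicate 4 and to 3245 without replicates 1 and 4. They numbered 745, 396 and 257 without non-targeting replicate 1, 2 and 3. Without replicates 1 and 4 the log2 fold changes in set 3 were 0.66 for ALDH1L2, 0.42 for PHGDH, 0.32 for MTHFD2, 0.29 for PSPH and 0.21 for MTHFD1, all larger than with them. Without replicate 1 alone they were 0.46 for ALDH1L2, 0.26 for PHGDH, 0.21 for MTHFD2, 0.22 for PSPH and 0.097 for MTHFD1, none larger than with it. Without replicate 4 alone they were 0.74, 0.46, 0.29, 0.33 and 0.27 in the same order.

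Set 3 against set 2 is the difference of the 2 contrasts named in the rule, so it too is given as a description. HUWE1 itself was lower in each library of set 3 than in each of set 2, at 89.6% of the set 2 mean (exact two-sided permutation p = 0.0286). It was not called by limma in this comparison, and its part in the differences below was not tested. No member was called at a limma adjusted p under 0.05 over all genes, where 0.517% of tested genes were (0.309% higher, 0.208% lower). An unadjusted limma p under 0.05 was found for 1 member, PSPH, and for 2507 of 15860 tested genes. PSPH held 35.3 ± 2.45 TPM in set 2 and 39.6 ± 2.34 TPM in set 3 (SD, n = 4; log2 difference 0.16). PSAT1 was lower in each library of set 3 (314 to 322 TPM) than in each library of set 2 (328 to 341 TPM), with a log2 difference of -0.073. In this comparison 13.2% of tested genes had groups that do not overlap, 8.13% higher and 5.05% lower. The log2 difference was 0.23 for ALDH1L2 and 0.19 for PHGDH, whose libraries overlapped between the sets. MTHFD1L and SHMT2 were nearly level, at 81.4 ± 5.33 and 81.2 ± 2.39 TPM for MTHFD1L and 259 ± 17.3 and 262 ± 11.2 TPM for SHMT2 (SD, n = 4).

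**Figure D3:**
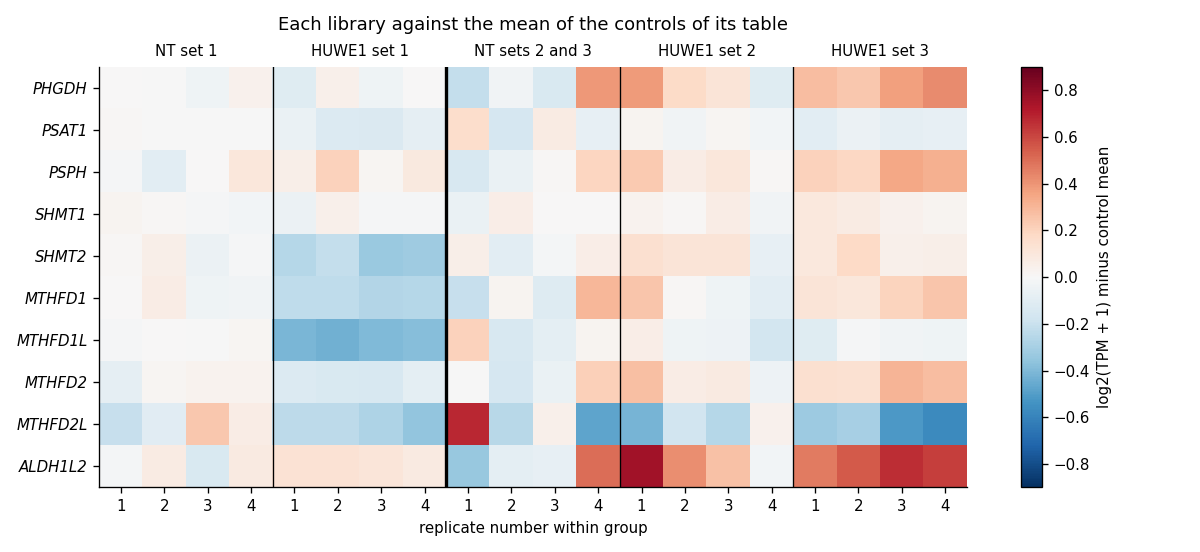
Log2(TPM + 1) of each enzyme in each library minus the mean of the non-targeting libraries of the same table (colour scale from -0.9 to 0.9). The thick line parts the tables. In set 1 the block of HUWE1 libraries is uniform for SHMT2, MTHFD1 and MTHFD1L, whereas in the second table non-targeting replicates 1 and 4 take opposite colours for PHGDH, MTHFD1, ALDH1L2 and MTHFD2L.

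Within groups of the second table several members moved together from library to library. In non-targeting replicate 4, ALDH1L2 stood 0.50 above the control mean on the log2 scale, PHGDH 0.39, MTHFD1 0.30, MTHFD2 0.22 and PSPH 0.20, while MTHFD2L stood at -0.47. In replicate 1, MTHFD2L stood at 0.68, ALDH1L2 at -0.34, PHGDH at -0.21 and MTHFD1 at -0.21. SHMT1 and SHMT2 stayed within 0.10 of the control mean in each of the 4 controls. Over the 12 libraries, deviations from the group means correlated between PHGDH and MTHFD1 at r = 0.97, between PHGDH and ALDH1L2 at r = 0.97 and between PHGDH and MTHFD2L at r = -0.82, and over the 10 libraries without replicates 1 and 4 at r = 0.94, 0.94 and -0.90. Of the 45 pairs of members, 9 had r above 0.8 and 4 below -0.8 over the 12 libraries, and 10 and 2 over the 10 libraries. The share of all gene pairs beyond these values was not computed, so the counts have no background beside them. In set 1, 1 pair had r above 0.8 and 0 below -0.8 over the 8 libraries, and PHGDH correlated with MTHFD1 at r = -0.047 and with ALDH1L2 at r = 0.30. These correlations are descriptions of libraries that share a group, a table and a normalization. The deviations of MTHFD2L (r = -0.96), MTHFD1 (0.95), PHGDH (0.93), ALDH1L2 (0.90) and PSPH (0.89) also followed the first component over all genes of the second table. For 12.2% of all tested genes the r with that component was larger in size than for PHGDH, so such a relation was common among genes. Its part in the levels of set 3 was not tested beyond the values without replicates 1 and 4.

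Genes whose deviations from group means were most like a member's over all 20 libraries were named for 3 members, out of 15296 genes tested in both tables. For SHMT2 they were KLHL22 (r = 0.85), FUZ (0.85) and POLD2 (0.85), a subunit of DNA polymerase delta. For MTHFD2 they were PDLIM3 (0.95), the antisense RNA ATP6V0E2-AS1 (0.92) and CAPRIN1 (0.92), and for ALDH1L2 they were SLC2A11 (0.97), ARNT2 (0.97) and STYXL1 (0.95). Within the first table alone the r of these 9 genes ran from 0.47 to 0.92.

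Other genes of folate, methionine, serine and glycine metabolism were measured beside the enzymes, from 4 lists of which 54 genes were tested in each table. In set 1, 13 of the 54 fell and 4 rose at a limma adjusted p under 0.05, with a median log2 fold change of -0.040 against -0.012 over all genes. The 17 called genes are 31.5% of the 54, near the 30.3% of all tested genes called in set 1. Of 16 folate cycle and transport genes 5 fell and 1 rose. TYMS, thymidylate synthase, fell from 160 ± 6.65 to 129 ± 2.75 TPM (SD, n = 4; -0.31 ± 0.032, SE; limma adjusted p = 1.87e-04). SLC46A1, the proton-coupled folate transporter, fell by 0.16, MTHFS by 0.10 and the purine synthesis gene GART by 0.084 (limma adjusted p 0.0169 to 0.0427). Of 10 carriers of serine and related amino acids 5 fell and 0 rose. They were SLC1A4 (-0.35), SLC38A1 (-0.33), the glutamine carrier SLC1A5 (-0.20), SFXN3 (-0.16) and the mitochondrial serine carrier SFXN1 (-0.095), with limma adjusted p between 8.24e-05 and 0.023.

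In set 1, calls among methionine cycle genes and users of serine and glycine went both ways. Of 15 methionine cycle genes 2 fell, MMACHC (-0.26) and the methionine synthase reductase gene MTRR (-0.21), and 1 rose, AHCYL2 (0.11). Of 13 genes that use serine or glycine 1 fell, the phosphatidylserine synthase gene PTDSS1 (-0.18), and 2 rose, SPTLC1 (0.17), a subunit of serine palmitoyltransferase, and SDSL (0.18). Limma adjusted p of these 6 genes lay between 6.79e-04 and 0.0373. In set 2, 0 of the 54 genes were called by limma, and 3 had an unadjusted p under 0.05, where 1401 of 15860 tested genes did. In set 3, 6 rose and 0 fell: SRR, serine racemase (0.57), SDSL (0.48), SFXN2 (0.34), GGH, which shortens folate polyglutamates (0.26), ALDH7A1 (0.25) and GART (0.16), with limma adjusted p between 0.0055 and 0.0491. SRR measured 14.2, 21.2, 17.9 and 27.7 TPM in the shared controls and 28.5 to 31.1 TPM in set 3, so that it too was highest in non-targeting replicate 4 among the controls. The 6 are 11.1% of the 54, near the 11.6% of all tested genes called in set 3. The count of 6 became 23 without non-targeting replicate 4, 13 without replicates 1 and 4, 1 without replicate 2 or 3 and 2 without replicate 1. Without set 3 replicate 1, 2, 3 or 4 it was 2, 4, 1 and 1. Calls over all tested genes moved in the same way, from 1839 to 5878 without non-targeting replicate 4 and to 3245 without replicates 1 and 4. In set 3 against set 2, 0 of the 54 were called by limma. An unadjusted limma p under 0.05 was found for 6 of them, and for 2507 of 15860 tested genes.

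**Figure D4:**
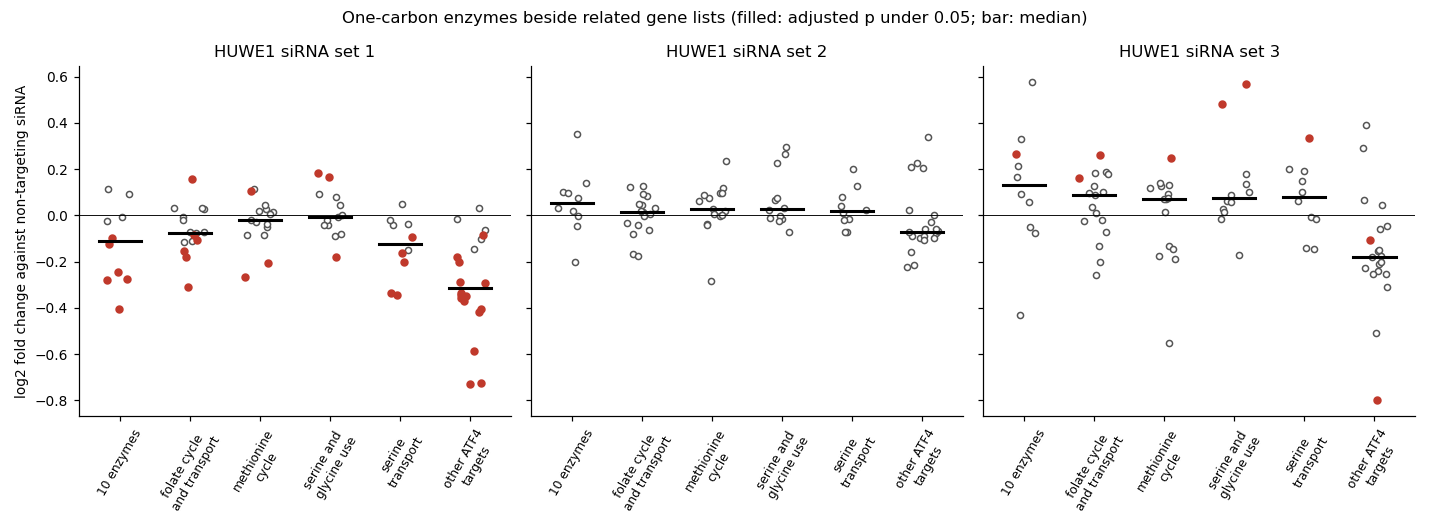
Log2 fold change of each tested gene against the non-targeting siRNA of its table, for the 10 enzymes and 5 related lists in sets 1, 2 and 3 (points spread sideways for visibility; bars are medians). Filled points passed a limma adjusted p under 0.05. In set 1 the medians are -0.11 for the enzymes and -0.31 for other ATF4 targets, and in set 3 they are 0.13 and -0.18.

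Transcripts of factors known to act on the pathway were read from a further list. ATF4 itself measured 1324 TPM in the controls of set 1 and 1262 TPM after HUWE1 siRNA (log2 fold change -0.069 ± 0.021, SE; limma adjusted p = 0.0324), and was not called in set 2 (0.016, limma adjusted p = 0.871) or set 3 (-0.034, limma adjusted p = 0.481). MYC fell in set 1 from 237 to 210.03 TPM (-0.18 ± 0.032, SE; limma adjusted p = 0.00292), and had -0.21 ± 0.22 in set 2 and -0.45 ± 0.22 in set 3 (limma adjusted p = 0.744 and 0.166). EIF2AK3, the kinase PERK of the endoplasmic reticulum, fell in set 1 (-0.34) and EIF2AK1 rose (0.11; limma adjusted p 9.06e-04 and 0.00522). NFE2L2, which encodes NRF2, had -0.011 ± 0.042 in set 1 (limma adjusted p = 0.867) and rose in set 3 (0.22 ± 0.056, SE; limma adjusted p = 0.0354), as did the repressor gene GFI1 (0.32; 0.0371). These were 2 of 10 listed factors, where 7.45% of all tested genes were called higher in set 3. Calls over all genes in set 3 ran from 163 to 5878 with 1 library left out.

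Among 20 ATF4 targets outside the pathway, 15 fell and 0 rose in set 1, where 17.9% of all tested genes fell, with a median of -0.31, led in p by CEBPG (-0.42), PPP1R15A (-0.40), TRIB3 (-0.72) and SLC7A5 (-0.35; limma adjusted p 3.46e-05 to 7.74e-05). ASNS, asparagine synthetase, was the least changed of the 15 (-0.083; limma adjusted p = 0.027), close to PSAT1. In set 2, 0 of the 20 were called by limma, and 2 had an unadjusted p under 0.05, where 1401 of 15860 tested genes did. In set 3, 2 fell, DDIT4 (-0.80) and ALDH18A1 (-0.11; limma adjusted p 0.0183 and 0.0463), and the median was -0.18, on the other side of zero from the median of 0.13 of the 10 enzymes. The shared controls were widely spread for some of these targets too. In non-targeting replicates 1 and 4 DDIT4 measured 1925 and 1015 TPM, and ASNS, the other way, 153 and 239 TPM. The part of this spread in the medians was not tested. The list overlaps none of the 10 members, and earlier results on ATF4 targets in these data were known when it was drawn up. With 1 library left out the count of 2 in set 3 ran from 0 to 11.

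Assignment of reads limits some of these values. GENCODE 29 lists 14 pseudogene copies named after PSAT1, PSPH, SHMT1, MTHFD1 and MTHFD2, 7 of them of MTHFD2, and none of the 14 has a row in the tables, so how reads shared with these copies were counted is unknown. SHMT1 overlaps the opposite-strand gene SMCR8, which held 72.1 TPM in the controls of set 1, and MTHFD1 overlaps ZBTB25 (9.48 TPM). ALDH1L2 overlaps the opposite-strand gene C12orf45, which held 4.54 TPM in those controls, where ALDH1L2 itself held 3.99 to 4.82 TPM. In the shared controls of sets 2 and 3 the means were 4.67 TPM for C12orf45 and 8.33 TPM for ALDH1L2. The library kit marks strand, but no source used here says whether counting used it.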

How the data were processed

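The authors deposited TPM values in 2 tables with 1 column per library, from stranded poly(A)-selected libraries, per the labels' protocols. The submitters' processing notes name hg38; no source used here names the aligner or the counting tool. Depth is unknown, since each library sums to the same total, and so no counting error can be given.

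The test was limma 3.58.1 (R 4.3.3) on log2(TPM + 1), with a mean trend in the variance and Benjamini-Hochberg adjustment over all tested genes. A gene was tested in a table where its TPM reached 1 in 4 or more libraries. This scale understates changes of low genes. Set 1 was fitted on its 8 libraries, and sets 2 and 3 with their shared controls in 1 model of 12. The procedure was tested on simulated data with independent noise for each gene. Such data hold no component shared between genes, so they cannot show how calls behave under the one seen in the second table. The members and the gene lists were chosen with earlier results of these data known. The text names the 10 members, HUWE1, ATF4, MYC, NFE2L2, in each list up to 4 called genes per direction with the smallest p, and the 3 genes most like SHMT2, MTHFD2 and ALDH1L2. GART and SFXN1 in set 1, and ASNS, were added after their values were seen. Values of 2 genes counted in the folate list are not reported here. Alternatives changed the pseudocount (0.1), the filter (none, or mean TPM at least 5), the scaling (median of ratios, quantile, or mitochondrially encoded genes removed), the variance model (no trend, or robust), the replicate block, the groups in the model and the libraries kept. Of the 63 other pathway genes 62 were found. In the 20 libraries mature kidney markers summed to 4.68 to 7.65 TPM and hepatocyte markers to 4.72 to 11.1 TPM.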

Additional observations from a re-analysis of the deposited data

Results flagged for a closer look

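SHMT2, MTHFD1 and MTHFD2 stood on opposite sides of their control means in sets 1 and 3. Each HUWE1 library of set 1 lay below the mean of its controls and each of set 3 above the mean of the shared ones. Groups did not overlap in set 1, but in set 3 the libraries of each of these genes overlapped with the shared controls. The share of all genes that meet this rule was not computed. The log2 fold changes were -0.28 and 0.093 for SHMT2, -0.24 and 0.17 for MTHFD1, and -0.12 and 0.21 for MTHFD2. The difference between the sets was not tested, because the tables were normalized separately, and in set 3 none of the 3 passed the threshold.

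Among 50 groups of 4 values, 2 held a library far from the other 3, where chance gives about 2.5. SHMT2 measured 234 TPM in HUWE1 set 2 replicate 4, against 266 to 271 TPM in the others, and MTHFD2 measured 169 TPM in non-targeting replicate 1 of set 1, against 181 to 183 TPM.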

How the results depend on the processing

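In set 1, MTHFD1L, SHMT2, MTHFD1, MTHFD2 and PSAT1 kept their direction and their call under 17 of 17 alternatives. The member count was 5 to 6 when 1 library was left out, and the counts over all genes and other pathway genes were 3640 to 4675 and 12 to 16.

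Signs turned only for values that passed no threshold. In set 1 scaling by median of ratios gave SHMT1 0.014, quantile normalization gave it 0.0024 and removal of mitochondrially encoded genes gave it 0.0029, and PHGDH was 0.026 with quantile normalization. In set 2 PSAT1 was 0.0054 with quantile normalization, and without non-targeting replicates 1 and 4 PSAT1 was 0.038, SHMT1 -0.011 and MTHFD1L 0.069. MTHFD1L in set 3 was 0.067 without those libraries, and SHMT2 in set 3 against set 2 was -0.019 with quantile normalization. With 1 library left out, the values in set 1 ran from -0.047 to 0.0043 for PHGDH and from -0.022 to 0.0095 for SHMT1. In set 2 they ran from -0.041 to 0.13 for MTHFD1, -0.095 to 0.022 for MTHFD1L, -0.36 to 0.024 for MTHFD2L, -0.055 to 0.049 for PSAT1 and -0.0026 to 0.037 for SHMT1. In set 3 they ran from -0.097 to 0.021 for MTHFD1L, and in set 3 against set 2 from -0.042 to 0.035 for MTHFD1L and from -0.032 to 0.040 for SHMT2.

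In set 2 the count over all genes was 1 with median-of-ratios scaling, quantile normalization, limma without trend, the replicate block and only the 2 groups compared, 6 without mitochondrially encoded genes, and 1 to 2 with 1 library left out. In set 3 the member count was 0 with no filter, after either other scaling (median of ratios or quantile), with TPM without mitochondrially encoded genes, limma without trend, the replicate block and only the 2 groups compared, 2 at a mean TPM of 5 or more, 4 without non-targeting replicates 1 and 4, and 0 to 6 with 1 library left out. The other pathway genes called in set 3 were 2 with no filter, limma without trend or only the 2 groups, 1 with the replicate block, 13 without replicates 1 and 4, and 1 to 23 with 1 library left out. Over all genes the set 3 count was 698 with no filter, 693 with the replicate block, 360 with only the 2 groups, 3245 without replicates 1 and 4, and 163 to 5878 with 1 library left out, against 1839. For set 3 against set 2 it was 42, 17 and 335 under the first 3 of these and 20 to 68 with 1 library left out, against 82. The cause was not tested. Scaling moved the share of higher calls in set 1 from 40.8% to 50.5% (median-of-ratios) or 50.9% (quantile), and in set 3 from 64.2% to 48.9%, 52.5% or, without mitochondrially encoded genes, 44.4%. The median log2 fold change over all genes stayed between -0.0206 and 0.00917.

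Same-numbered libraries of 2 groups did not deviate together in each pair (r from -0.55 to 0.45), so the numbers were not taken as pairs. With the replicate block, 5 members were called in set 1, 0 in set 2, 0 in set 3 and 0 in set 3 against set 2.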
